A study of Rattus norvegicus with 10 samples.

Results

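The genes described here are coagulation and fibrinolysis factors that the liver makes: F2, F7, F9, F10, F12, Proc, Plg, Fga, Fgb and Fgg. They were taken as every probe set that the array's annotation assigns to exactly 1 gene symbol, that symbol being in the list. This gave 10 probe sets for 9 genes, out of 9378 genes that the array measured with 12562 such probe sets among 15859 in all. Fga had 2 probe sets and the other 8 genes had 1 each. F7 was represented by none, so it was not analysed here. The livers came from Wistar Han rats (strain label CRL:WI (Han)) aged 6 to 8 weeks. RG3487 was given by gavage at 180 mg/kg to 5 rats, and deionized water, in the same volume of 5 ml/kg, to another 5 rats that served as vehicle controls. The sample labels place the collection at 24 h after dosing, whereas the series text states 2 h. Each animal gave 1 Affymetrix array made from 1 ug of total RNA of the left lateral lobe. The labels give a housing group size of 5 but not which rats shared a cage.

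Hepatocytes secrete most clotting factors into the plasma as inactive precursors. Contact activation starts with factor XII, the product of F12. Factors IX and X, products of F9 and F10, act in turn to convert prothrombin, the product of F2, into thrombin. Thrombin cuts fibrinogen, which is assembled from the chains encoded by Fga, Fgb and Fgg, into fibrin. Protein C, the product of Proc, is an anticoagulant protease that inactivates cofactors of the cascade, and plasminogen, the product of Plg, is the precursor of the protease that dissolves fibrin. Factors IX and X, prothrombin and protein C need vitamin K for the carboxylation of their glutamate residues. Fibrinogen is also an acute phase protein whose synthesis rises with interleukin-6.

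RG3487 is a compound that binds the alpha7 nicotinic acetylcholine receptor, and the comparison asked what the liver transcripts of these genes did after dosing. The protease precursors of the cascade were lower with RG3487, most of all F12, which stood at 56.9% of its vehicle mean. Proc was at 68.2%, F9 at 71.2%, F2 at 75.1%, F10 at 75.4% and Plg at 79.7%. None of the 4 fibrinogen probe sets passed the test: their means lay between 90.9% and 111% of vehicle. A probe set was called at a Benjamini-Hochberg adjusted p under 0.05 in limma, on log2 of signal plus 16, over all 11894 probe sets tested. All 10 probe sets passed the filter on dim signals, and 6 were called lower and 0 higher. Of all probe sets tested, 7.16% were called lower, 20.5% higher and 27.7% in either direction. Of the brightest 10%, which held all 10, 23% were called lower. In 7 of the 10 every RG3487 liver was below every vehicle liver, against 4.48% of all probe sets and 17.4% of the brightest 10%. Signals are MAS5 intensities on a linear scale, and log2 differences are RG3487 minus vehicle.

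F12, which starts the contact pathway, had signals of 1902, 1882, 1877, 1977 and 1921 with RG3487, against 3362, 3291, 3299, 3277 and 3573 with vehicle. The groups were 1300 signal units apart at their closest, and the coefficient of variation (SD over mean) among the RG3487 livers was 2.11%, against 3.67% among the vehicle livers. The mean was 1912 ± 40 with RG3487 and 3360 ± 123 with vehicle (SD, n = 5 each), a log2 difference of -0.81 ± 0.04 SE in limma (1.75-fold lower, adjusted p = 2.03e-06). Only 104 of the 11894 probe sets had a larger decrease. Relative to each of the other 8 genes, F12 fell by a further 0.26 (against Proc) to 0.74 (against Fgb) on the log2 scale, and in all 8 comparisons the animals of both groups did not overlap. F12 was picked out here after its value was seen, so no p-value is attached to these differences.

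Among the vitamin K-dependent factors, F9 had signals of 3370, 3202, 3289, 3087 and 3087 with RG3487, against 4353, 4329, 4569, 4376 and 4888 with vehicle. Its groups did not overlap, and the log2 difference was -0.49 ± 0.05 (1.40-fold lower, limma adjusted p = 7.34e-05). F10, whose product forms the complex that activates prothrombin, had 1760, 1808, 1859, 1784 and 1643 with RG3487, against 2423, 2214, 2247, 2411 and 2453 with vehicle. The groups were separate here too, with a log2 difference of -0.40 ± 0.05 (1.32-fold lower, limma adjusted p = 0.000286).

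F2 had signals of 5630, 5462, 5699, 5273 and 5410 with RG3487, against 7129, 7020, 6851, 8027 and 7573 with vehicle. Every RG3487 liver was below every vehicle liver by at least 1152 units, and the log2 difference was -0.41 ± 0.05 (1.33-fold lower, limma adjusted p = 0.000212). Proc, the gene of the anticoagulant member of this class, had 2507, 2288, 2485, 2321 and 2368 with RG3487, against 3382, 3612, 3485, 3581 and 3495 with vehicle. Its log2 difference of -0.55 ± 0.04 (1.46-fold lower, limma adjusted p = 1.46e-05) was the second largest among the clotting genes. The 6 pairs that F2, F9, F10 and Proc form were compared by each animal's log2 difference between both genes. Proc fell by more than F2 by 0.14 ± 0.04, and by more than F10 by 0.15 ± 0.05 (SE, n = 5 each; exact two-sided permutation p = 0.00794 and 0.0397). After adjustment over 9 pairs, the 3 fibrinogen pairs included, neither passed (adjusted p = 0.0714 and 0.119), and 0.00794 is the smallest p that 252 regroupings can give. The other 4 pairs had differences of at most 0.08 in size, with exact permutation p between 0.111 and 0.865. These differences depended on the scaling: with quantile normalization F2 fell by less than F10 by 0.18 and by less than Proc by 0.28, and both pairs passed (exact permutation, adjusted p = 0.0357 over 9 pairs for each).

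Plg, the plasminogen gene of the fibrin-dissolving arm, had signals of 5122, 4855, 4891, 5148 and 4601 with RG3487, against 6064, 6111, 5831, 6275 and 6589 with vehicle. The groups were 683 units apart, and the log2 difference was -0.33 ± 0.05 (1.25-fold lower, limma adjusted p = 0.000579).

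**Figure D1:**
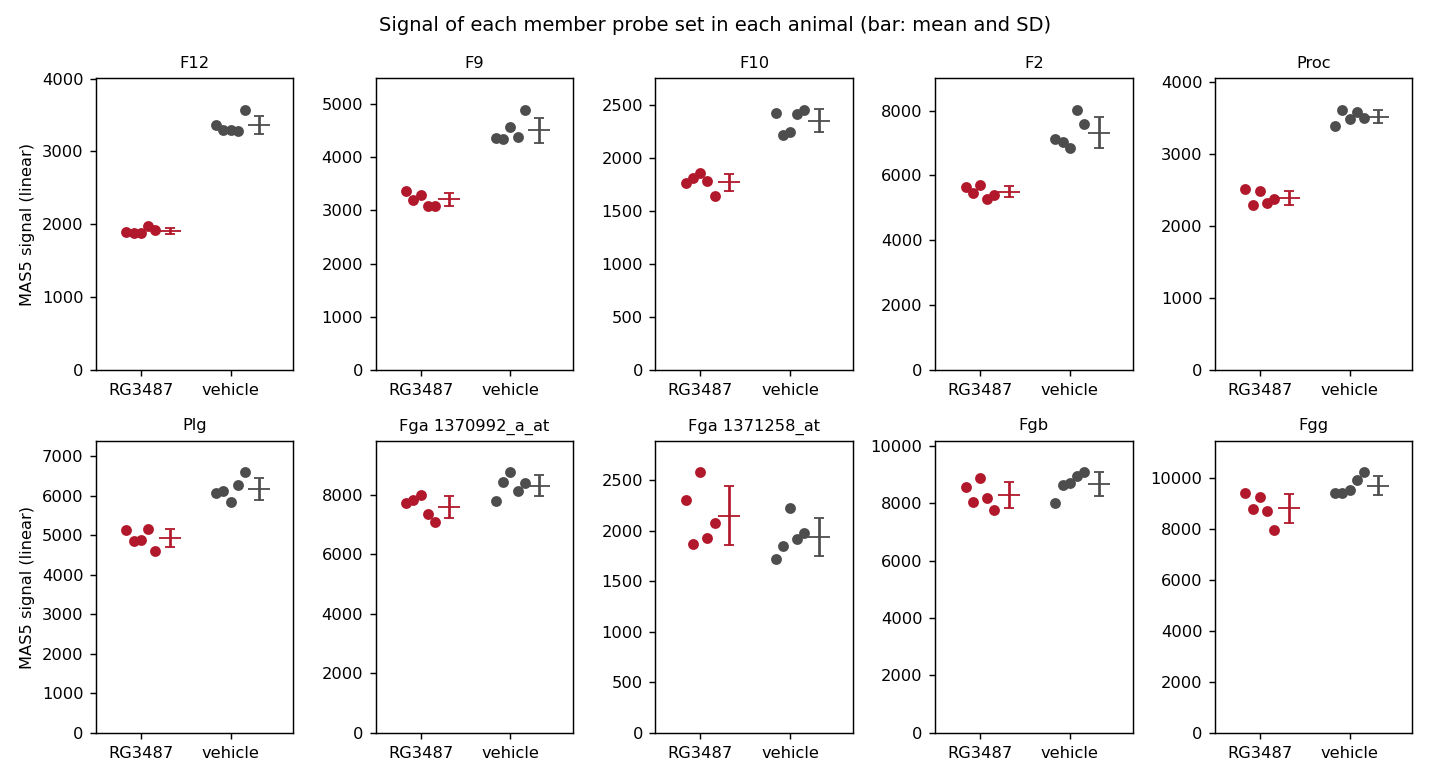
MAS5 signal (linear scale, from 0) of the 10 probe sets in each animal, RG3487 in red and vehicle in grey, with 1 point per liver and a bar for the mean and SD of 5 livers. The groups are separate in F12, F9, F10, F2, Proc and Plg, they overlap in Fgb and both Fga probe sets, and in Fgg they are 6 units apart.

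The fibrinogen chains differed less. Fgg had signals of 9408, 8773, 9262, 8699 and 7967 with RG3487, against 9418, 9414, 9527, 9938 and 10227 with vehicle. All RG3487 livers were below all vehicle livers, but by only 6 units, and the log2 difference of -0.14 ± 0.05 did not pass (limma adjusted p = 0.0535). Fgb had 8572, 8038, 8860, 8193 and 7753 with RG3487, against 8011, 8646, 8709, 8938 and 9071 with vehicle. Its groups overlapped, with a log2 difference of -0.07 ± 0.05 (95% interval -0.17 to 0.04, limma adjusted p = 0.321).

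The 2 probe sets of Fga gave differences of opposite sign. Probe set 1370992_a_at had 7723, 7810, 8000, 7349 and 7076 with RG3487, against 7802, 8426, 8754, 8140 and 8414 with vehicle, a log2 difference of -0.13 ± 0.05 (limma adjusted p = 0.0533). Probe set 1371258_at had 2307, 1865, 2575, 1922 and 2070 with RG3487, against 1720, 1849, 2227, 1912 and 1980 with vehicle, a log2 difference of 0.14 ± 0.09 (limma adjusted p = 0.271). Both overlapped between the groups, and the second varied more among animals, with coefficients of variation of 13.7% with RG3487 and 9.70% with vehicle, against 2.11% to 6.52% in the other 9 probe sets. Single animals decided whether Fgg and the first Fga probe set were called: without RG3487 animal 3 both passed (-0.16 and -0.15, limma adjusted p = 0.0399 and 0.0345), Fgg passed without RG3487 animal 1 (-0.16, 0.0398), and Fga without vehicle animal 1 (-0.15, 0.0382). The 3 chains, represented by the Fga probe set with the higher mean, were also compared in pairs. Fgb fell by less than Fgg by 0.07 ± 0.03 (exact permutation p = 0.0397, adjusted p = 0.119 over 9 pairs). The difference between Fga and Fgb was -0.06 ± 0.03 (exact permutation p = 0.0635, adjusted p = 0.143), and that between Fga and Fgg 0.01 ± 0.04 (exact permutation p = 0.849, adjusted p = 0.865).

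**Figure D2:**
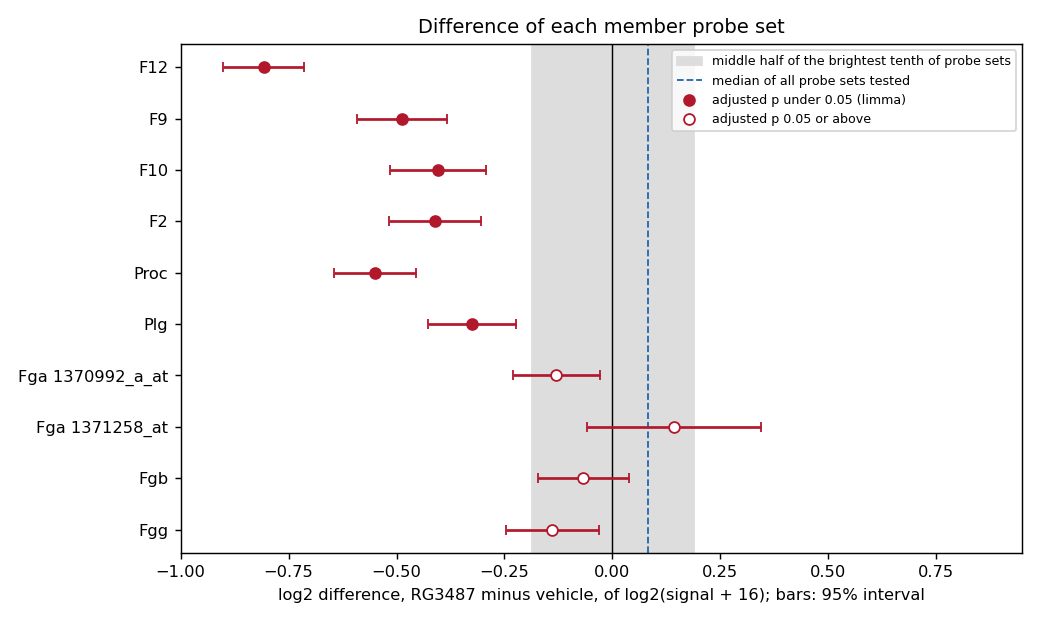
Log2 difference (RG3487 minus vehicle, of log2 of signal plus 16) of each probe set with its 95% interval from limma, filled where the adjusted p was under 0.05. F12 has the largest decrease (-0.81), the 6 protease precursors lie between -0.81 and -0.33, and the 4 fibrinogen probe sets lie between -0.14 and 0.14. The dashed line is the median of all probe sets tested (0.08), and the grey band runs between the quartiles of the brightest 10%.

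All 10 probe sets lay in the brightest 5% of those tested, and calls depended on signal. Among the brightest 10%, 23% of probe sets were called lower and 24.7% higher. The 5 probe sets of F2, Plg, Fgb, Fgg and Fga (1370992_a_at) were among the 119 brightest, 1% of those tested, and 2 of the 5 were called lower. Of these 119, 52.1% were called lower and 1 was called higher, with a median log2 difference of -0.15 and quartiles of -0.23 and -0.09. Fgg, Fga (1370992_a_at) and Plg are to be read against that range: Fgg and this Fga probe set were within it, Fgb was just above it, and Plg and F2 were below it. Of the 5 probe sets of F9, F10, F12, Proc and Fga (1371258_at), 4 were called lower. They were among the next 476 in signal, of which 26.9% were called lower. There the median log2 difference was 0.00, the quartiles were -0.24 and 0.17, and F12 had the 9th lowest value. These 2 ranges of signal were set after the values had been seen. How far probe sets this bright follow the amount of RNA was not tested.

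**Figure D3:**
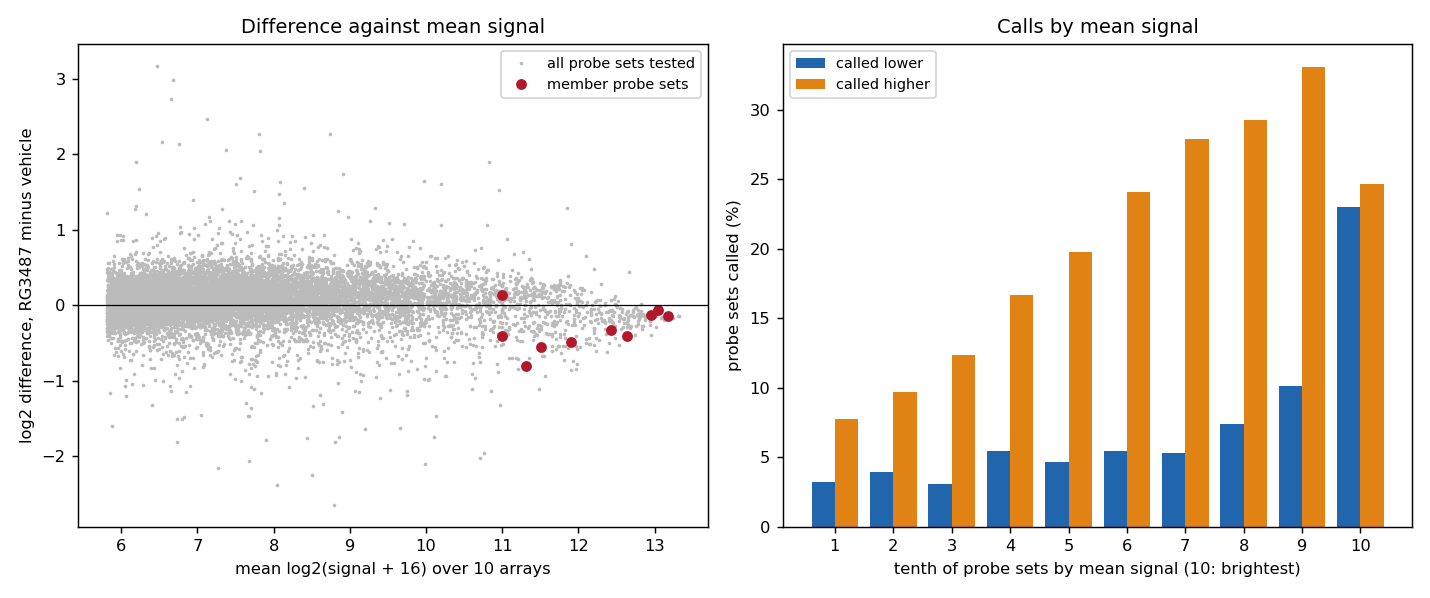
Left, log2 difference against mean log2 signal over the 10 arrays for all 11894 probe sets tested (grey) and the 10 clotting probe sets (red). Right, percent of probe sets called lower (blue) and higher (orange) in each of 10 equal bins of mean signal: the share called lower is between 3.11% and 10.1% in the first 9 bins and 23% in the brightest, which holds all 10 clotting probe sets.

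The deposited arrays share a common mean signal of 330 to 332, while the median signal was 94.4 ± 1.5 with RG3487 and 88.6 ± 2.6 with vehicle (SD, n = 5 each) and the highest signal 9771 ± 433 with RG3487 and 10784 ± 399 with vehicle. The scaling of the arrays therefore bears on small differences. The share of calls that were higher was 74.1% as deposited, 54.4% with quantile normalization, 50.4% with arrays centred on their median and 95% with scaling to bacterial and phage spike-in controls, which moved the median log2 difference of all probe sets from 0.08 to 0.28. F12, F9, F10, F2, Proc and Plg were called lower under all 4 scalings. With spike-in scaling, their smallest change was that of Plg (-0.13, limma adjusted p = 0.036) and their largest that of F12 (-0.61, adjusted p = 1.9e-05). Proc then differed by -0.35, F9 by -0.29, F2 by -0.22 and F10 by -0.21 on the log2 scale, and with quantile normalization F2 and Plg differed by -0.24 and -0.18. Fibrinogen had no stable direction: as deposited the log2 differences of Fgb, Fgg and Fga (1370992_a_at) were -0.07, -0.14 and -0.13, whereas with quantile normalization they were 0.09, 0.03 and 0.04 and with spike-in scaling 0.13, 0.06 and 0.07. With arrays centred, Fgg and this Fga probe set were called lower (-0.22 and -0.21, limma adjusted p = 0.0276 and 0.0228), whereas with spike-in scaling Fgb and Fga (1371258_at) were called higher (0.13 and 0.34, limma adjusted p = 0.043 and 0.00785).

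**Figure D4:**
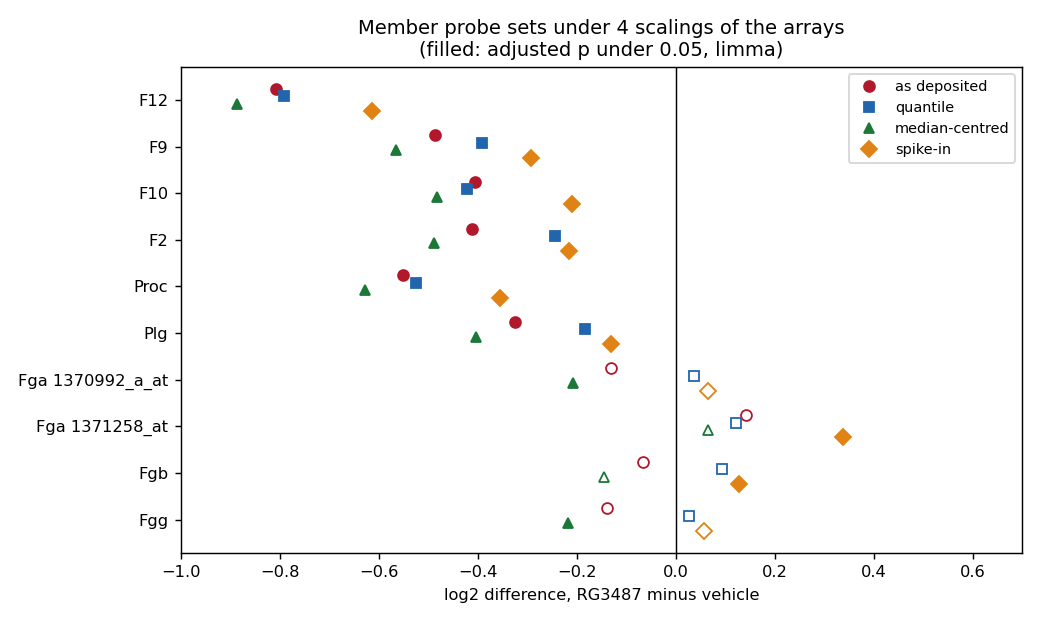
Log2 difference (RG3487 minus vehicle) of each probe set under 4 scalings of the arrays, filled where the limma adjusted p was under 0.05. The 6 protease precursors stay below 0 and filled under each scaling, whereas Fgb, Fgg and Fga 1370992_a_at change sign.

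The promoters of these genes were searched for short motifs of liver transcription factors, as a description. Windows of 300 bases, 250 before to 50 after the annotated start, were taken from RefSeq (build GRCr8) for all 9 measured genes. Matches to 4 short motifs were searched on both strands: GTTAAT, a core of hepatocyte nuclear factor 1 (HNF1) sites; CAAAGTC, a core of hepatocyte nuclear factor 4 sites; TTGCNNAA, a site of C/EBP proteins; and CTGGGAA, the interleukin-6 response element known from fibrinogen genes. The HNF1 core was in 5 of the 9 windows, where 7.37% of 27457 promoters of the same length hold it. CTGGGAA was in 4 of 9 (10.9% of all promoters), TTGCNNAA in 3 of 9 (10.5%) and CAAAGTC in 0 of 9 (4.54%). The fibrinogen genes Fgb and Fgg were among the 4 with CTGGGAA. The motifs were chosen as sites of liver factors, while the 27457 promoters are not limited to liver genes. These shares are therefore not a test. Only these exact letters were counted, so 0 matches does not mean that a window holds no site of that factor. The 5 HNF1 matches, all on the opposite strand and so read as ATTAAC (capitals), began 38 bases before the start in F2 and Proc, 52 in Fga, 67 in Plg and 90 in Fgb. They are shown in 30-base windows that run 5′ to 3′ on each gene's strand.
F2 (GRCr8 chr3:98065267-98065296, minus strand): cattggttcaatATTAACccagagagagtc
Proc (GRCr8 chr18:24048962-24048991, minus strand): tgtgggttatggATTAACctgactcccaga
Plg (GRCr8 chr1:50915456-50915485, minus strand): gcccagacaatgATTAACctcatcagacta
Fga (GRCr8 chr2:170672105-170672134, plus strand): acaagggtgatgATTAACctagtttcctgc
Fgb (GRCr8 chr2:170700948-170700977, minus strand): aaactgtcaaatATTAACtaaagggaggta
Of these 5 genes, F2, Proc and Plg were called lower and Fga and Fgb were not. A match is a description of the letters only.

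The whole window of F12, the gene with the largest decrease, held 0 matches to the 4 motifs, as did that of F10. It is set beside those of Fgb and Fgg, whose transcripts changed least among the genes with 1 probe set. Capitals mark motif matches: in Fgb the interleukin-6 element, the C/EBP site and the HNF1 core, starting 152, 141 and 90 bases before the annotated start, and in Fgg the interleukin-6 element, starting at 169 and again at 61. Matches did not overlap one another. The interleukin-6 element was also in the windows of F9 and Plg, both called lower. Any part of these matches in the changes was not tested.
F12 (GRCr8 chr17:9212569-9212868, plus strand): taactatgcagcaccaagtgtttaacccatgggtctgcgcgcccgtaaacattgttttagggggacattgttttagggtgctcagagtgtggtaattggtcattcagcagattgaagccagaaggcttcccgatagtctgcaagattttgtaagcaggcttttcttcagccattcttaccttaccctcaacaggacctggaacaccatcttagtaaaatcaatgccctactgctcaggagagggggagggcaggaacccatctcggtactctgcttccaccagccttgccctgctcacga
Fgb (GRCr8 chr2:170700826-170701125, minus strand): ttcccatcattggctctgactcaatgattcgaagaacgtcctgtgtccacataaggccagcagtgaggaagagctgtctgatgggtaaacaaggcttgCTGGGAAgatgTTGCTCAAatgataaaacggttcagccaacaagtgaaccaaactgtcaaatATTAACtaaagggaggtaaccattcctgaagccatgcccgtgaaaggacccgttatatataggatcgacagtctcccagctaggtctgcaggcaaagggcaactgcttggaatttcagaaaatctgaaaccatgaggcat
Fgg (GRCr8 chr2:170652833-170653132, plus strand): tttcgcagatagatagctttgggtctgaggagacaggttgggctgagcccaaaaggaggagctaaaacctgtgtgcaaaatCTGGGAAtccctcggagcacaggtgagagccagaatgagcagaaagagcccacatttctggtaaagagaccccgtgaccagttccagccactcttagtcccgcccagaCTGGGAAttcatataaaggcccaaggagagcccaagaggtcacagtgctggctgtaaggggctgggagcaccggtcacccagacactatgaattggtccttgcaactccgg
In the RefSeq annotation Fgg, Fga and Fgb are neighbours on chromosome 2, whereas the 6 genes called lower lie on 6 other chromosomes.

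The rest of the cascade was described by lists written with earlier results of these data known, so their counts are set beside the 7.16% called lower and 20.5% called higher over all probe sets, and no set was tested. Of other coagulation and fibrinolysis factors, 9 probe sets of 7 genes were tested, and 6 were called lower and 1 higher. Their median log2 difference was -0.27, where that of all probe sets was 0.08. Of the 9, 3 lay between the brightest 5% and 1%, where 26.9% of all probe sets were called lower. All 3 were called lower (median -0.29). The other 6 were dimmer, with 3 lower and 1 higher (median -0.18). F5, the cofactor of factor X, had signals of 1173, 987, 830, 860 and 835 with RG3487, against 1716, 1727, 1466, 1551 and 1210 with vehicle, and fell by 0.70 ± 0.11 on the log2 scale (limma adjusted p = 0.00117). Hgfac, which encodes a protease closely related to factor XII, had 355, 474, 461, 415 and 439 with RG3487, against 730, 636, 659, 732 and 601 with vehicle. Its groups did not overlap, and it fell by 0.63 ± 0.09 (limma adjusted p = 0.000439).

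Klkb1 encodes prekallikrein, the partner of factor XII in contact activation. Its mean signal was 1840 ± 119 with RG3487 and 2262 ± 310 with vehicle (SD, n = 5 each), and it fell by 0.29 ± 0.08 on the log2 scale (limma adjusted p = 0.0243) with overlapping groups. That call was lost with spike-in scaling (-0.09, adjusted p = 0.414) and without RG3487 animal 1 (-0.26, adjusted p = 0.0565). Kng2l1, a rat kininogen gene, had 3 probe sets, all lower, with log2 differences of -0.47, -0.27 and -0.24, of which the second and the third missed the threshold under spike-in scaling (limma adjusted p = 0.313 and 0.601) and the third also without each of 5 animals (0.0549 to 0.0717). Rat kininogen genes are close copies of each other, so which of them these probe sets read is uncertain. Hpn, the gene of the membrane protease hepsin, was the 1 probe set called higher (0.16 ± 0.05, limma adjusted p = 0.034). Its call was lost after quantile normalization (adjusted p = 0.0903) and with arrays centred (0.305).

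Inhibitors of coagulation and fibrinolysis were lower in 7 of 14 probe sets and higher in 0, with a median log2 difference of -0.19. Of the 14, 3 were among the 119 brightest, and all 3 were called lower. With spike-in scaling, in contrast, 4 of the 14 were lower and 4 higher. Serping1, the gene of the C1 inhibitor that also blocks factor XII, had a mean signal of 4179 ± 130 with RG3487 and 5773 ± 299 with vehicle (SD, n = 5 each), and fell by 0.46 ± 0.05 on the log2 scale (limma adjusted p = 7.14e-05). Pros1 encodes protein S, the cofactor of protein C. It had 1315, 1335, 1333, 1362 and 1387 with RG3487, against 1815, 1803, 1758, 1883 and 1828 with vehicle, a log2 difference of -0.43 ± 0.04 (limma adjusted p = 7.99e-05), between those of F9 and F10.

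Cpb2, whose product protects fibrin from plasmin, changed by -0.37 ± 0.06 (limma adjusted p = 0.000854). Serpinc1 encodes antithrombin, the main inhibitor of thrombin and factor X. It changed by -0.26 ± 0.05 (adjusted p = 0.00268), but its call was lost after quantile normalization (-0.08, adjusted p = 0.0711) and under spike-in scaling (-0.07, 0.24). A2m, the gene of the broad protease inhibitor alpha-2-macroglobulin, had a mean signal of 79.0 ± 22.5 with RG3487 and 156.8 ± 54.8 with vehicle (log2 difference -0.83 ± 0.23, limma adjusted p = 0.0194), with overlapping groups. Apoh, a phospholipid-binding plasma protein gene, changed by -0.18 ± 0.05 (adjusted p = 0.013) but its call was lost after quantile normalization (-0.02, 0.652), and it had the opposite sign with spike-in scaling (0.02).

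Of 11 genes of the vitamin K cycle, carboxylation and export of clotting factors, 2 were called lower and 0 higher. Ggcx, the carboxylase that modifies the vitamin K-dependent factors, had signals of 334, 276, 328, 301 and 304 with RG3487, against 425, 495, 407, 556 and 450 with vehicle. The groups did not overlap, and Ggcx fell by 0.57 ± 0.09 on the log2 scale (limma adjusted p = 0.000877). P4hb, the gene of protein disulfide isomerase, changed by -0.32 ± 0.05 (adjusted p = 0.00138), but missed the threshold under spike-in scaling (-0.12, adjusted p = 0.073). Vkorc1, which encodes the vitamin K reductase blocked by warfarin and was named after its value was seen, changed by -0.08 ± 0.08 (adjusted p = 0.471).

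Of 27 probe sets for 13 genes of liver transcription factors and interleukin-6 signalling, 10 were called higher and 4 lower. With quantile normalization these counts were 5 and 5. Hnf4a, the gene of hepatocyte nuclear factor 4 alpha, was higher in all 3 of its probe sets (log2 differences 0.29, 0.36 and 0.33), of which the first, the brightest, passed under all 4 scalings and the other 2 neither with quantile normalization nor with arrays centred. Foxa3, a liver forkhead factor, had 229, 267, 220, 264 and 227 with RG3487, against 96, 140, 127, 145 and 115 with vehicle (0.88 ± 0.10, limma adjusted p = 0.000191). Dbp, a clock-controlled factor, rose by 2.47 ± 0.38 (adjusted p = 0.000854).

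In the interleukin-6 pathway, which drives fibrinogen genes, Il6st, the shared signal-transducing receptor subunit, was lower in all 4 probe sets (log2 differences -0.49 to -0.30), of which 2 missed the threshold under spike-in scaling (limma adjusted p = 0.235 and 0.292). Stat3, the transcription factor below it, was higher in both probe sets (0.49 ± 0.11 and 0.55 ± 0.16, limma adjusted p = 0.00571 and 0.0263). The second lost its call after quantile normalization (adjusted p = 0.0757) and with arrays centred (0.0574). The kinase gene Jak1 was higher in both of its probe sets (0.27 ± 0.05 and 0.25 ± 0.06, adjusted p = 0.0019 and 0.0129), the second of which failed under the same 2 scalings (adjusted p = 0.077 and 0.0562).

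Other plasma proteins of hepatocytes, the class to which the clotting factors belong, were lower in 18 of 29 probe sets and higher in 1, with a median log2 difference of -0.20. Of these 29, 21 were among the 119 brightest probe sets, and 12 of the 21 were called lower, near the 52.1% of all probe sets that bright. The median of these 21, -0.18, lay within the quartiles of that range given above. Among the next 476 in signal the list had 4 probe sets. All 4 were called lower, with a median of -0.67, where 26.9% of the 476 were. Below the brightest 5% it had 4, of which 2 were lower and 1 higher. With spike-in scaling, 8 of the 29 were lower and 4 higher. The genes with the smallest p had limma adjusted p between 1.13e-05 and 0.000468. They were those of the copper carrier Cp (3 probe sets, log2 differences -0.95, -0.74 and -0.50) and of angiotensinogen, Agt (-0.71). The others were Itih1 (-0.60), Itih2 (-0.63), Itih4 (-0.42) and Itih3 (-0.31) of the inter-alpha-trypsin inhibitor heavy chain family. Of these, the call of Itih3 was lost under spike-in scaling (adjusted p = 0.0562). The decreases of Cp, Itih1, Itih2 and Agt were thus of the size seen in F12, Proc and F9. Albumin, the most abundant plasma protein, had log2 differences of 0.06 and -0.02 in its 2 probe sets (adjusted p = 0.582 and 0.875) and is named here after its values were seen.

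**Figure D5:**
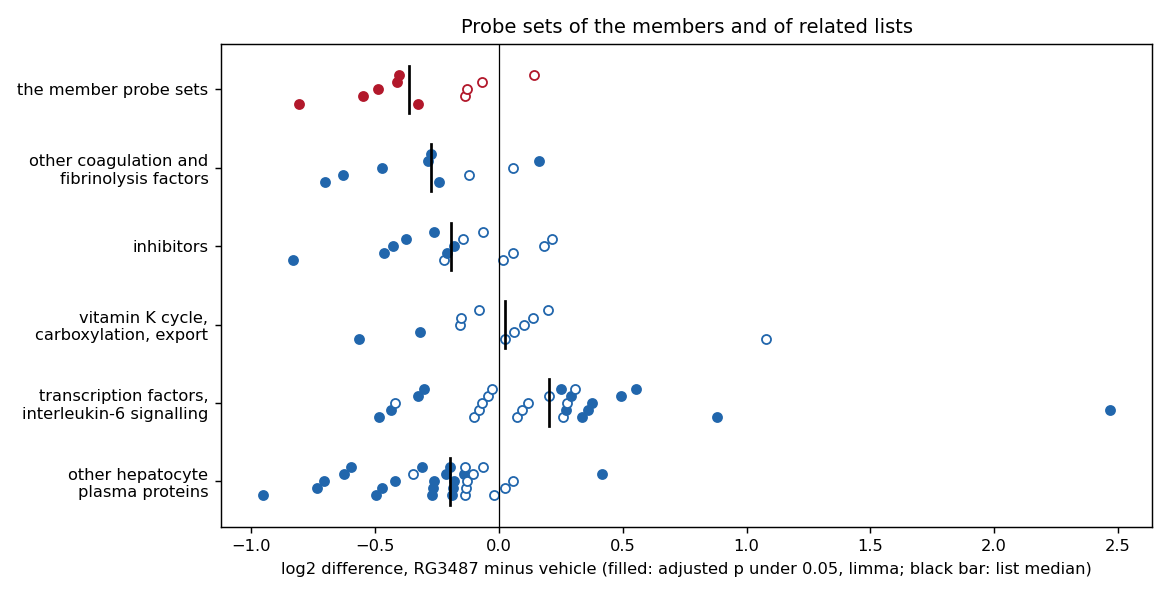
Log2 difference (RG3487 minus vehicle) of every tested probe set of the clotting genes (red) and of the 5 related lists (blue), filled where the limma adjusted p was under 0.05, with a black bar at each median. The medians are -0.37 for the clotting genes, -0.27 for other coagulation factors, -0.19 for inhibitors, 0.03 for the vitamin K cycle, 0.20 for transcription factors and interleukin-6 signalling and -0.20 for other plasma proteins.

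The genes whose signal followed the clotting genes most closely were Pzp, C3, Vtn, Pcca and Pon1, with Pearson r between 0.974 and 0.990 over the 10 arrays, out of 7718 genes compared. The clotting genes were represented by the mean of their standardised log2 signals, 1 probe set a gene. These correlations describe 10 arrays that share the 2 treatment groups. Pzp and C3 encode a protease inhibitor and the central complement protein of plasma, Vtn an adhesive plasma protein and Pon1 an esterase carried on lipoproteins. Pcca, a mitochondrial carboxylase subunit, is not secreted. Their log2 differences ran from -0.72 (Pcca) to -0.27 (Vtn), each with a limma adjusted p of at most 0.00139.

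The tissue label was checked against fixed cell type markers. The summed signal of the hepatocyte markers was 54287 to 63984 with RG3487 and 65307 to 68941 with vehicle, without overlap, and 5 of 11 probe sets were called lower and 0 higher. Of the 11, 8 were among the 119 brightest, and 3 of these 8 were called lower, where 52.1% of all probe sets that bright were. The markers of the other cell types were all below the brightest 5%, and their counts are to be read against the 7.16% lower and 20.5% higher over all probe sets. Kupffer cell and macrophage markers summed to 2980 to 3633 with RG3487 and 3975 to 4819 with vehicle, and 3 of 8 were lower and 0 higher. Endothelial markers summed to 3276 to 3898 with RG3487 and 3891 to 4448 with vehicle, with 2 of 9 lower and 0 higher. Stellate cell markers summed to 1930 to 2261 with RG3487 and 1717 to 2348 with vehicle, with 1 of 9 lower and 1 higher. Platelet markers, of which the array held 2 of 10 genes, summed to 149 to 207 with RG3487 and 148 to 221 with vehicle, and 0 of 2 were called. Cholangiocyte markers summed to 154 to 294 with RG3487 and 122 to 204 with vehicle, and leukocyte markers to 143 to 204 with RG3487 and 167 to 217 with vehicle, with no call among their 3 tested probe sets. Marker sums and counts are given as deposited only. The median log2 difference of the hepatocyte markers was -0.14, beside -0.15 for the 119 brightest probe sets. The part of these marker shifts in the decreases above was not tested. In whole liver, fewer cells of a type, less RNA per cell and the scaling of the arrays cannot be told apart here.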

How the data were processed

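The authors deposited a table of MAS5 intensity values, linear in scale, 1 per probe set and array, per the submitters' processing notes and the values; no source used here gives the version or the target of scaling. The table lists 15899 probe sets, 40 of them controls. Gene symbols came from the platform annotation, updated through Entrez identifiers (0 symbols changed). Log2 of signal plus 16 was analysed, a pseudocount that makes folds of dim genes smaller. Controls and the dimmest 25% were left out (11894 remained). RG3487 and vehicle were compared with limma 3.58.1 in R 4.3.3 (lmFit, eBayes with trend; two-sided, Benjamini-Hochberg over all probe sets tested). The number of arrays, 5 a group, limits the precision. Pairs of clotting genes were compared by exact permutation; F7 had no value, so 9 pairs remained of those planned. The genes, lists and motifs were chosen with earlier results of these data known. Named genes are all clotting genes, up to 6 called genes with the smallest p per list, and the 5 genes with the most similar signal. Alternatives were other pseudocounts, scalings, filters and eBayes settings, array weights, the replicate block, a permutation test per probe set and each array left out. The code was tested on simulated data.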

Additional observations from a re-analysis of the deposited data

How the results depend on the processing

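F12, F9, F10, F2, Proc and Plg were called lower in all 22 alternatives run, with adjusted p of at most 0.0432 and log2 differences from -0.89 (F12, arrays centred) to -0.13 (Plg, spike-in scaling). The count of clotting probe sets called lower was 6, and 6 to 8 over the alternatives, the added ones being Fgg and Fga (1370992_a_at). Leaving out each animal in turn gave 6 to 8, and 7 to 8 probe sets without overlap, where 7 were without overlap as deposited (5 with spike-in scaling). Fgb changed to 0.13 and Apoh to 0.016 with spike-in scaling, and the F2 and F10 pair to 0.18 with quantile normalization; the cause was not tested. Over the 5 related lists 36 probe sets were called lower as deposited and 18 with spike-in scaling. Of the 9 pairs, 0 passed, against 2 with quantile normalization (F2 against F10 and F2 against Proc) and, over the animals left out, 0 to 2 (2 without vehicle animal 4, F2 against F9 and F2 against Proc). Of all probe sets, 852 were lower and 2443 higher as deposited, 1195 and 1425 with quantile normalization, 1335 and 1359 with arrays centred, 354 and 6683 with spike-in scaling, and 533 and 1654 with the permutation test per probe set. With the replicate block 6 clotting probe sets were called lower, as without it. The titles number the rats, but the source names give different animals, and same-numbered rats had correlations of deviations from -0.04 to 0.17, so the numbers do not pair them. Under the block Hpn (adjusted p = 0.0635), Apoh (0.0508) and 1 probe set of Kng2l1 (0.061) lost their calls. Without single animals, calls were lost by Hpn (7 animals, adjusted p 0.0544 to 0.0842), 1 probe set of Kng2l1 (5, 0.0549 to 0.0717), 1 of Stat3 (4, 0.0504 to 0.0596), 1 of Il6st (4, 0.06 to 0.0704) and Klkb1 (1, 0.0565). A2m, Klkb1, 3 probe sets of Il6st and 1 of Stat3 lost theirs with the permutation test per probe set (adjusted p 0.0647 to 0.0812). Spike-in scaling assumes that every sample got the same amount of control RNA, and no source used here states that. The mean log2 signal of these controls per array was 9.67 to 9.74 with RG3487 and 9.85 to 9.94 with vehicle, without overlap. What set these control signals apart was not tested.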

Other observations

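The order of the animals within a group was similar in some of the clotting genes and in some other bright genes. RG3487 animal 5 had the lowest signal of its group in 5 of the 10 probe sets, and vehicle animal 5 the highest of its group in 6 of 10. Both held for Hp and for both Alb probe sets, which are not clotting genes. In Orm1 only the second held. The shares over all probe sets were not counted, so these counts are not a trait of the clotting genes. Vehicle animal 5 also had the highest maximum signal of all arrays (11392), and RG3487 animal 5 the lowest (9113). The median log2 deviation of the 10 probe sets from the vehicle mean ran from -0.43 (RG3487 animal 5) to -0.32 (RG3487 animal 1) among RG3487 livers, and from -0.04 (vehicle animal 1) to 0.06 (vehicle animal 5) among vehicle livers.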
